A study of Mus musculus with 6 samples.

Results

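The 40 genes described here encode the proteins of the mouse kinetochore, the assembly that ties a chromosome to spindle microtubules in mitosis, together with the spindle checkpoint and the chromosomal passenger complex. They were chosen by name, with earlier results of these data known. They were found as rows of the count table of the series, 40 of 55367 gene names. All 40 were among the 14916 genes with enough reads to be tested. Total RNA of primary mouse keratinocytes, the main cells of the epidermis, was depleted of ribosomal RNA and sequenced as single reads of 42 nt from 6 cultures. All cultures carried the genotype *Ppp1r13l*flox/flox;Cre+ERT on a mixed C57BL/6 and 129/Sv background and came from skin of pups at day 2. *Ppp1r13l* encodes iASPP, an inhibitor of p53 that also binds p63. In each of 3 batches, 1 culture received medium with tamoxifen after 24 h (iASPP-KO) and 1 received medium without it (iASPP-WT). The recombinase is expressed from the Rosa26 locus and is therefore not limited to keratinocytes, and since no culture had tamoxifen with an intact gene or an intact recombinase without floxed alleles, the effect of the drug and of the deletion cannot be told apart. Whether a batch stands for 1 litter or several animals is not stated in the sources used here. The p-values therefore measure how the difference within a batch varied over these 3 batches, with level differences between batches removed.

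The kinetochore is built in layers. A histone variant, CENP-A, marks the centromere, the constitutive network of CENP proteins sits on it, and the KMN network reaches from there to the microtubules. Unattached kinetochores carry a fibrous corona and the checkpoint proteins that hold back anaphase, and the passenger complex with Aurora B corrects faulty attachments. Most of these genes are known to be transcribed late in the cell cycle, so their RNA is low in cells that do not divide.

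Promoters of such genes often hold a CCAAT box, a binding sequence of the factor NF-Y, and a cell cycle genes homology region (CHR), which MuvB complexes bind. The following stretches around annotated transcription starts are shown because they belong to 4 members that fell in iASPP-KO cultures (*Cdca8*, *Bub1*, *Ttk* and *Cenpf*) and to 2 whose fold change was near 0 (*Bub3* and *Zwint*). They are RefSeq sequences of build GRCm38.p6, written 5′ to 3′ on the strand of the gene. Capitals mark each CCAAT or its reverse complement ATTGG, and each CHR, searched as TTTGAA or TTCGAA on both strands, so that TTCAAA is also a match. *Cdca8* spans chr4:124936888-124936958 (minus strand), *Bub1* chr2:127831836-127831959 (minus strand), *Ttk* chr9:83834589-83834718 (plus strand), *Cenpf* chr1:189688057-189688186 (minus strand), *Bub3* chr7:131560325-131560354 (plus strand) and *Zwint* chr10:72654746-72654874 (plus strand). The *Bub3* stretch lies before the RefSeq start but inside an exon of another GENCODE vM21 transcript of the gene. In *Cdca8* the CHR shares 1 base with the CCAAT match after it.
Cdca8: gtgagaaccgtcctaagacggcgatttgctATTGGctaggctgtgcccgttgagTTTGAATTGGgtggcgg
Bub1: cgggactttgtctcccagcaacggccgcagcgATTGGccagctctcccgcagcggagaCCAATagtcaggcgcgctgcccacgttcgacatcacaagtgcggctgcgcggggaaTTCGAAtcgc
Ttk: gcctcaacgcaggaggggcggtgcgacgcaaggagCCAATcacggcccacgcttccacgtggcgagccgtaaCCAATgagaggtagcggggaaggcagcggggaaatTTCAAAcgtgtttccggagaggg
Cenpf: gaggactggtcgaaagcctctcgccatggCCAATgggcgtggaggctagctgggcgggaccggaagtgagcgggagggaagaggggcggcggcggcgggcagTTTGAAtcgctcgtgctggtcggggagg
Bub3: cgTTCAAAatcagCCAATgataggcctgct
Zwint: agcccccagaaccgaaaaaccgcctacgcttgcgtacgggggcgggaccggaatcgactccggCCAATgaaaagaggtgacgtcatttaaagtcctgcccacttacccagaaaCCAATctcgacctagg

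The targeted gene was examined first. *Ppp1r13l* (chr7:19359749-19378533, plus strand of build GRCm38) was counted 320, 395 and 139 times in iASPP-KO (batches 1, 2 and 3) and 697, 1100 and 472 times in the iASPP-WT partners. It was lower in iASPP-KO in each batch, with a log2 fold change of −1.45 (SE 0.18, edgeR adjusted p = 0.00296). Its count sums reads over all exons and does not single out the deleted one. The libraries held 20202517 to 25157117 counts, at which 3 counts correspond to 0.123 to 0.141 CPM (counts scaled to library size, with edgeR's TMM factors), and the 40 members together had 10887 to 33975 counts in a library. This floor covers counting error only, whereas the fitted intervals given below include the spread of the within-batch differences. The lowest member count in any library was 12, and 7 members had under 50 counts in some library, 2 of them among those called below.

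Kinetochore and checkpoint genes were lower in iASPP-KO cultures as a rule. Fold changes come from a single edgeR quasi-likelihood fit over all tested genes with batch and condition as terms, and a gene was called where its Benjamini-Hochberg adjusted p was under 0.05. By this measure 20 of the 40 members fell and 0 rose, whereas 1.95% of all tested genes fell and 2.17% rose. The log2 fold change was below 0 for 37 of 40 members and for 49.4% of all tested genes. At an unadjusted p under 0.05, 31 members were lower, against 8.09% of all genes. The median log2 fold change over the 40 members was −0.97, or 51.2% of the iASPP-WT level, while the median over all tested genes was 0.01. The members that fell lay between 38.0% and 58.8% of the iASPP-WT level. Because these are bulk cultures, fewer cells in mitosis and less of each RNA per cell cannot be told apart.

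**Figure D1:**
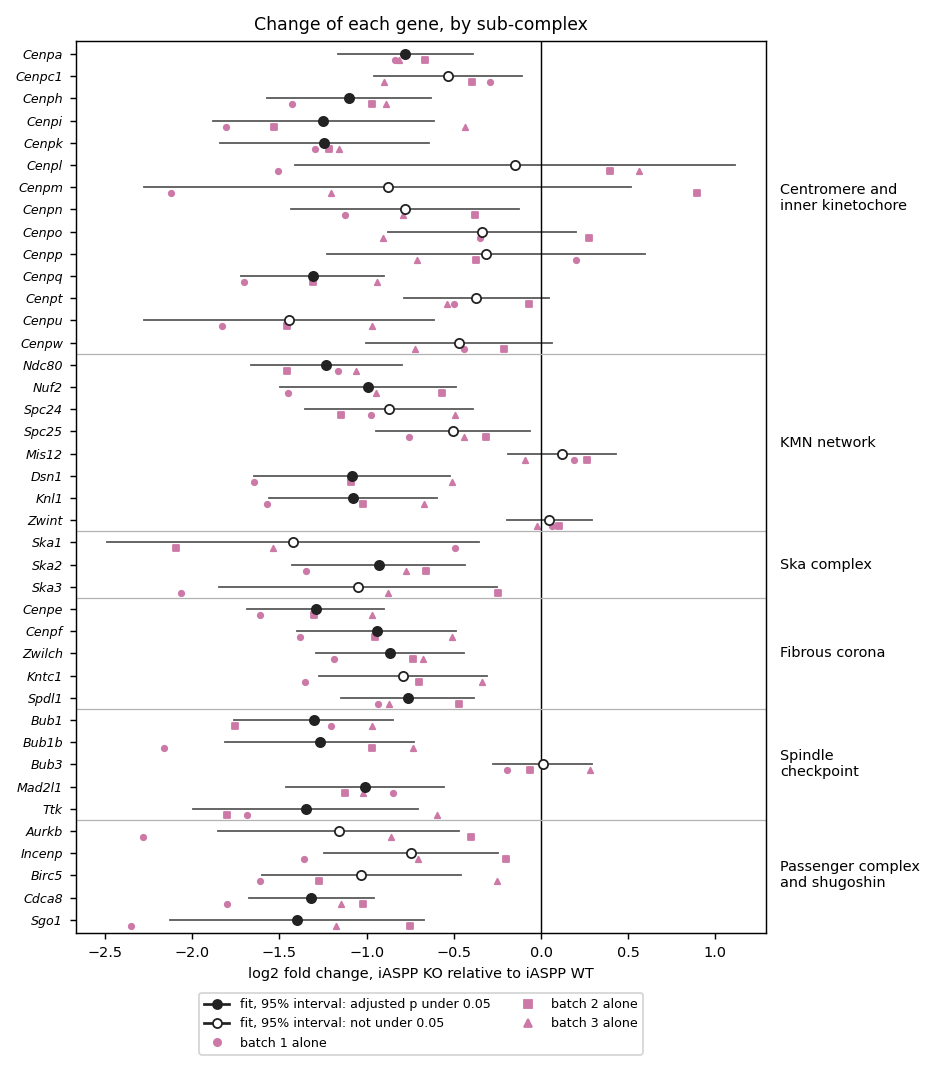
The horizontal axis gives, for each of the 40 genes grouped by sub-complex, how far iASPP-KO lay above (positive) or below (negative) iASPP-WT as a log2 fold change. Large circles with bars are the fitted value and its 95% interval (filled where the adjusted p is under 0.05), and small marks are the 3 batches alone. All but 3 of the fitted values, those of *Mis12*, *Zwint* and *Bub3*, lie below 0, and the 20 filled circles lie between −1.40 and −0.77.

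The direction held within batches. Taken alone, batch 1 gave a median log2 difference of −1.35 over the members, batch 2 gave −0.72 and batch 3 gave −0.78, and 37, 35 and 38 of the 40 members were lower in them. A member was lower in every batch in 33 of 40 cases, against 19.7% of all tested genes. Batch 1 had the largest fall for 27 members, batch 2 for 6 and batch 3 for 7. The batches also differed in level: the iASPP-WT culture of batch 3 was the highest iASPP-WT culture for 36 of 40 members and for 5921 of all 14916 tested genes. It had a median log2 difference of 1.11 from the mean of the other two over the members, and for 29 members even the iASPP-KO culture of batch 3 was above both iASPP-WT cultures of batches 1 and 2. For 38 members the groups therefore overlapped when batch was set aside. The exceptions were *Ska3* and *Incenp*, and across all genes 5.46% had every iASPP-KO culture below every iASPP-WT culture. A fit without the batch term called 0 of all 14916 genes in either direction, members included, with 1 member at an unadjusted p under 0.05, so its count does not set the members apart. Calls also depended on single batches, and the whole table moved with them: 7 members of 151 genes in all were called lower without batch 1, 9 of 117 without batch 2 and 26 of 662 without batch 3. DESeq2 with all batches called 26 members, adding *Cenpu*, *Spc24*, *Kntc1*, *Aurkb*, *Incenp* and *Birc5*, and 442 genes lower in all.

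**Figure D2:**
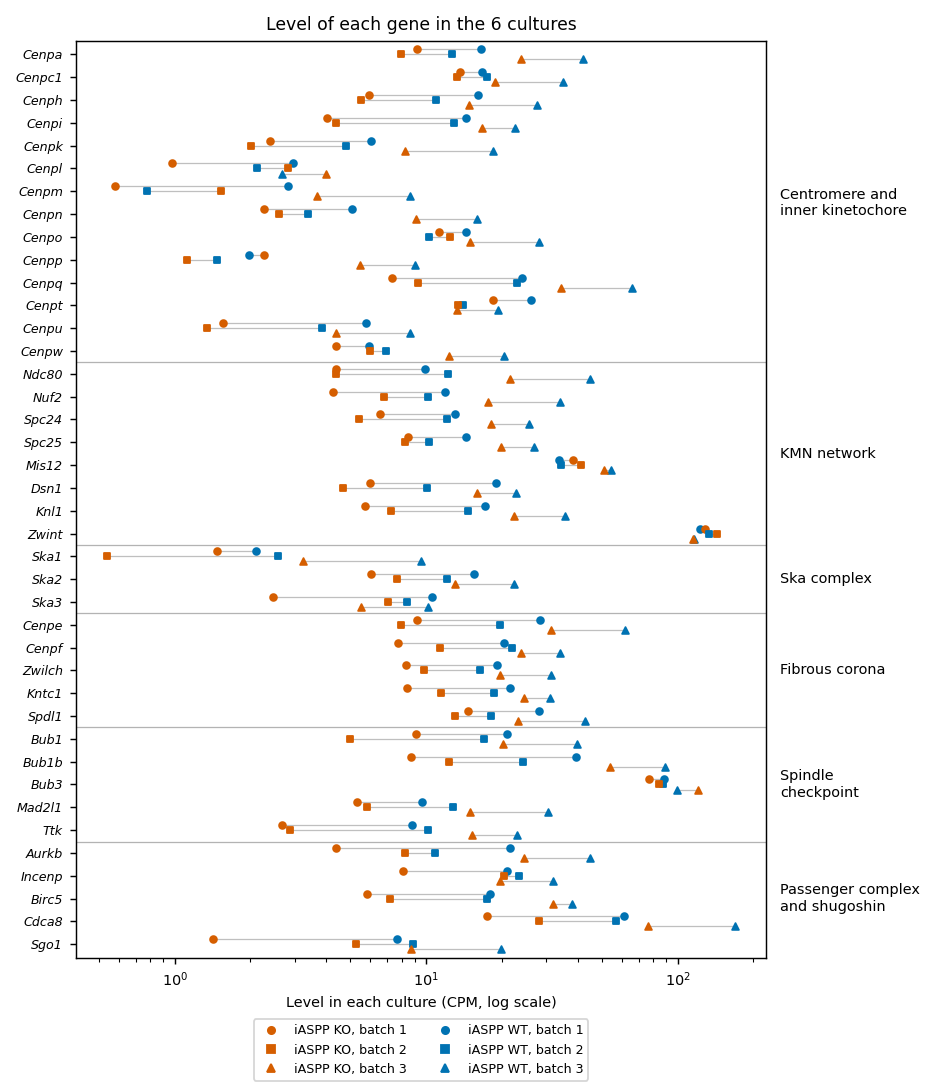
The horizontal axis (log scale) gives the level in CPM in each of the 6 cultures. Orange marks are iASPP-KO, blue marks iASPP-WT, the shape of a mark gives the batch, and a grey line joins the 2 cultures of a batch. Blue marks lie to the right of their orange partners for most genes, the triangles of batch 3 lie farthest right for most genes, and *Zwint*, *Bub3* and *Mis12* show nearly coincident groups.

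The centromere and inner kinetochore were represented by 14 genes, of which 5 fell (*Cenpa*, *Cenph*, *Cenpi*, *Cenpk* and *Cenpq*), with a median log2 fold change of −0.78 over all 14. *Cenpa* (chr5:30666777-30674830) encodes CENP-A itself. It stood at 9.22, 7.95 and 23.9 CPM in iASPP-KO (batches 1, 2 and 3, an order kept for every gene) and at 16.5, 12.7 and 42 CPM in iASPP-WT. Each iASPP-KO culture was below its partner by a similar amount, with batch differences of −0.84, −0.67 and −0.81 on the log2 scale, and the fitted log2 fold change was −0.78 (SE 0.17, edgeR adjusted p = 0.0362). The gene that encodes the CENP-A reader CENP-C, *Cenpc1*, had 13.6, 13.3 and 18.7 CPM against 16.6, 17.5 and 35.01 CPM and a log2 fold change of −0.53 that did not pass (95% interval −0.96 to −0.11, edgeR adjusted p = 0.180).

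CENP-H, CENP-I, CENP-K and CENP-M form a subunit group of the constitutive network. *Cenph* went from 16.1, 10.9 and 27.6 CPM in iASPP-WT to 5.92, 5.52 and 14.9 CPM in iASPP-KO cultures (log2 fold change −1.10, SE 0.21, edgeR adjusted p = 0.0204). For *Cenpi* the iASPP-WT values were 14.4, 12.9 and 22.5 CPM and the iASPP-KO values 4.05, 4.40 and 16.7 CPM, so that batch 3 changed least, by −0.43 on the log2 scale, against −1.81 in batch 1. *Cenpk* had 2.41, 2.02 and 8.24 CPM in iASPP-KO and 6.04, 4.80 and 18.5 CPM in iASPP-WT cultures. All 3 genes were lower in each batch, and for each the iASPP-KO culture of batch 3 was above the iASPP-WT value of another batch. The log2 fold changes of *Cenpi* and *Cenpk* were −1.25 (edgeR adjusted p = 0.0387) and −1.24 (edgeR adjusted p = 0.0311). *Cenpm* was measured with few reads, at 0.579, 1.53 and 3.70 CPM and 2.81, 0.779 and 8.64 CPM, and its interval of −2.27 to 0.52 included 0.

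Among CENP-O, CENP-P, CENP-Q and CENP-U, a second subunit group, *Cenpq* (chr17:40923051-40935047) had the smallest adjusted p of the inner kinetochore. Its level was 7.35, 9.25 and 34.3 CPM in iASPP-KO and 24.1, 23.0 and 65.9 CPM in iASPP-WT cultures, or 40.4% of the iASPP-WT level by the fit (log2 fold change −1.31, SE 0.18, edgeR adjusted p = 0.00489). *Cenpu*, which recruits Polo-like kinase, had the most negative log2 fold change of all 40 members at −1.44, but also a large error (SE 0.37) and an edgeR adjusted p of 0.0635. Its 3 iASPP-KO cultures had 1.56, 1.35 and 4.38 CPM and their partners 5.76, 3.86 and 8.64 CPM. *Cenpo* and *Cenpp* had values of −0.34 and −0.32, with intervals of −0.88 to 0.20 and −1.23 to 0.60.

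The remaining members of the inner kinetochore were not called. *Cenpl* and *Cenpn* encode partners that contact CENP-A nucleosomes. *Cenpl*, the lowest of the 40 genes per length, had a log2 fold change of −0.15 with batches at −1.51, 0.39 and 0.56, and it changed sign to 0.50 without batch 1. *Cenpn* was at −0.78 (edgeR adjusted p = 0.207). The histone-fold partners *Cenpt* and *Cenpw* were at −0.37 (interval −0.79 to 0.05) and −0.47 (edgeR adjusted p = 0.367). Of the 5 calls in this layer, that of *Cenpq* alone held without batch 1 and without batch 2, where the adjusted p of the other 4 ran from 0.0980 to 0.153 and from 0.0576 to 0.166, and *Cenpk* also missed the threshold without batch 3 (edgeR adjusted p = 0.0770). *Cenpu* was called without batch 3 (edgeR adjusted p = 0.0300).

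The KMN network, which binds microtubules, held both genes that fell and genes with a fold change near 0. Of its 8 genes, *Ndc80*, *Nuf2*, *Dsn1* and *Knl1* fell, and the median log2 fold change was −0.93. *Ndc80* (chr17:71496100-71526857) and *Nuf2* encode the arm of the Ndc80 complex that touches the microtubule. *Ndc80* had 4.37, 4.40 and 21.5 CPM in iASPP-KO cultures and 9.89, 12.2 and 45.03 CPM in iASPP-WT cultures, with batch differences of −1.16, −1.46 and −1.06 and a fitted log2 fold change of −1.23 (SE 0.19, 95% interval −1.66 to −0.80, edgeR adjusted p = 0.00858). *Nuf2* changed by −0.99 (SE 0.23, edgeR adjusted p = 0.0389), from 11.9, 10.2 and 33.9 CPM to 4.28, 6.82 and 17.6 CPM. The stalk of the same complex is encoded by *Spc24* and *Spc25*, which did not pass: their log2 fold changes were −0.87 (edgeR adjusted p = 0.0545) and −0.51 (edgeR adjusted p = 0.225), and *Spc24* was called without batch 3 (edgeR adjusted p = 0.00552). Whether the arm and the stalk genes differ from each other was not tested.

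Scaffold genes of the network behaved unequally. *Knl1*, whose product is the docking platform of the checkpoint kinase Bub1, fell from 17.1, 14.7 and 35.7 CPM to 5.70, 7.23 and 22.4 CPM (log2 fold change −1.08, edgeR adjusted p = 0.0231), and *Dsn1*, a subunit of the Mis12 complex, fell by a like amount (−1.08, edgeR adjusted p = 0.0423). *Mis12* itself had 38.5, 41.4 and 50.9 CPM in iASPP-KO and 33.7, 34.5 and 54.2 CPM in iASPP-WT cultures. Those groups overlapped, and the log2 fold change was 0.12, with an interval of −0.19 to 0.43. *Zwint*, a partner of Knl1, had 129, 143 and 115 CPM in iASPP-KO and 123, 133 and 117 CPM in iASPP-WT cultures, and the groups overlapped. Its log2 fold change was 0.05 (interval −0.20 to 0.29), with the smallest standard error of the 40 genes, 0.11, and its iASPP-WT level hardly varied between batches. In this network only the call of *Ndc80* held without batch 1, those of *Ndc80* and *Nuf2* held without batch 2, and all 4 held without batch 3. *Dsn1* had the largest adjusted p of the lost calls, at 0.231 without batch 1.

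The Ska complex follows the ends of microtubules and supports the Ndc80 complex there. *Ska2* fell from 15.5, 12.1 and 22.4 CPM in iASPP-WT to 6.01, 7.63 and 13.0 CPM in iASPP-KO cultures (log2 fold change −0.93, SE 0.22, edgeR adjusted p = 0.0473), a call that was lost without batch 1 (adjusted p = 0.261) and without batch 2 (adjusted p = 0.0986). *Ska3* had 2.45, 7.05 and 5.52 CPM against 10.5, 8.37 and 10.2 CPM. Every iASPP-KO culture was below every iASPP-WT culture, yet the batches ran from −2.07 to −0.24 on the log2 scale and the fit gave −1.05 (SE 0.36, edgeR adjusted p = 0.160). *Ska1* was at −1.42 (SE 0.48, edgeR adjusted p = 0.156), and its iASPP-KO culture of batch 2 had 12 counts (0.539 CPM), the fewest of any member in any library. Without batch 3, *Ska3* was called (edgeR adjusted p = 0.0162).

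In the fibrous corona 4 of 5 genes fell. *Cenpe* (chr3:135212537-135273611) encodes the kinesin that carries chromosomes towards the plate. Its level was 9.22, 7.95 and 31.4 CPM in iASPP-KO and 28.4, 19.7 and 61.6 CPM in iASPP-WT cultures, and the log2 fold change was −1.29 (SE 0.18, edgeR adjusted p = 0.00431), or 40.8% of the iASPP-WT level. The gene of the large coiled-coil protein CENP-F, *Cenpf*, went from 20.3, 22.03 and 34.1 CPM to 7.75, 11.4 and 23.9 CPM (−0.94, edgeR adjusted p = 0.0317). *Zwilch* and *Kntc1* encode subunits of the RZZ complex, and *Spdl1* encodes Spindly, which links that complex to dynein. *Zwilch* fell by 0.87 and *Spdl1* by 0.77 on the log2 scale (edgeR adjusted p = 0.0339 and 0.0362), whereas *Kntc1*, at −0.79, did not pass (edgeR adjusted p = 0.0777). The call of *Cenpe* held with any batch left out. Those of *Cenpf*, *Zwilch* and *Spdl1* were lost without batch 1, at adjusted p of 0.155 to 0.189, and without batch 2, at 0.0626 to 0.124, and *Kntc1* was called without batch 3 (edgeR adjusted p = 0.000594).

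In the spindle checkpoint 4 of 5 genes fell, and the median log2 fold change was −1.27. The rank of this median among the sub-complexes was not stable, since without batch 2 it was −1.08 and that of the passenger complex with shugoshin −1.46. *Bub1* (chr2:127801122-127831865) and *Ttk* (chr9:83834689-83872389), which encodes Mps1, are kinases that start the signal. *Bub1* stood at 9.09, 4.98 and 20.3 CPM in iASPP-KO and 21.0, 17.0 and 39.7 CPM in iASPP-WT cultures (log2 fold change −1.30, SE 0.21, edgeR adjusted p = 0.00837). *Ttk* stood at 2.67, 2.87 and 15.2 CPM and 8.81, 10.2 and 23.0 CPM, and its difference was smallest in batch 3 at −0.60, against −1.69 and −1.80 in the others (fit −1.35, SE 0.29, edgeR adjusted p = 0.0302). The effectors BubR1 and Mad2 are encoded by *Bub1b* and *Mad2l1*. *Bub1b* had 8.73, 12.3 and 53.6 CPM and 39.3, 24.3 and 89.4 CPM, so that the iASPP-KO culture of batch 3 was above both iASPP-WT cultures of the other batches while each iASPP-KO culture was below its own partner. Its log2 fold change was −1.27 (SE 0.24, edgeR adjusted p = 0.0202) and that of *Mad2l1* −1.01 (SE 0.20, edgeR adjusted p = 0.0237).

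*Bub3* was the exception among the checkpoint members. The protein carries Bub1 and BubR1 to the kinetochore, and the gene had 77.0, 84.0 and 121 CPM in iASPP-KO cultures and 87.9, 87.9 and 99.5 CPM in iASPP-WT cultures. The iASPP-KO culture was lower in batches 1 and 2 and higher in batch 3, and the log2 fold change was 0.01 with an interval of −0.27 to 0.29. The sign turned to −0.13 without batch 3. Calls of *Bub1* and *Bub1b* held with any batch left out, that of *Mad2l1* was lost without batch 2 (adjusted p = 0.120), and that of *Ttk* without batch 1 (adjusted p = 0.0900) and without batch 2 (adjusted p = 0.145).

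The chromosomal passenger complex consists of the kinase Aurora B and 3 partners, INCENP, survivin and borealin. *Cdca8* (chr4:124918465-124939311), which encodes borealin, had the smallest adjusted p of the 40 members. It stood at 17.5, 28.1 and 76.0 CPM in iASPP-KO and 61.0, 56.9 and 169 CPM in iASPP-WT cultures, 40.1% of the iASPP-WT level by the fit (log2 fold change −1.32, SE 0.16, 95% interval −1.68 to −0.96, edgeR adjusted p = 0.00267), and the call held with any batch left out. *Sgo1*, the shugoshin that protects cohesin at the centromere, fell to 38.0% (1.43, 5.25 and 8.71 CPM against 7.64, 8.90 and 19.8 CPM, edgeR adjusted p = 0.0431), a call lost without batch 1 (adjusted p = 0.151).

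Aurora B, survivin and INCENP did not pass in the main edgeR fit. *Aurkb* had 4.37, 8.22 and 24.6 CPM in iASPP-KO and 21.6, 10.9 and 44.7 CPM in iASPP-WT cultures, with batch differences of −2.28, −0.40 and −0.86. These 3 values share a sign but spread widely, and the fit gave −1.16 (SE 0.31, edgeR adjusted p = 0.0714). *Birc5*, the survivin gene, was at −1.03 (edgeR adjusted p = 0.0539), with −1.61, −1.27 and −0.25 in the batches. For *Incenp*, every iASPP-KO culture (8.11, 20.5 and 19.6 CPM) was below every iASPP-WT culture (20.9, 23.5 and 31.9 CPM), and the log2 fold change was −0.75 (edgeR adjusted p = 0.108). All 3 were called without batch 3 (edgeR adjusted p = 9.31e-05 for *Aurkb*, 2.89e-06 for *Birc5* and 0.0115 for *Incenp*), and *Aurkb* also without batch 2 (adjusted p = 0.0307). With all batches DESeq2 called all 3 as well, at adjusted p of 0.00466, 0.00433 and 0.0465 in the same order, and *Birc5* passed under each other scaling, filter and dispersion tried.

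Summed over the 40 genes, the level was 485, 553 and 995 CPM in the iASPP-KO cultures and 842, 749.6 and 1513 CPM in the iASPP-WT cultures, so an iASPP-KO culture held 57.6%, 73.8% and 65.8% of its partner. The passenger complex with shugoshin held 28.8%, 58.8% and 53.0%, again by batch. The KMN network held 83.7%, 93.4% and 77.9%, a sum in which *Zwint* alone supplied 115 to 143 CPM. For the inner kinetochore the shares were 53.1%, 67.1% and 56.7%, and for the checkpoint, where *Bub3* supplied 77.0 to 121 CPM, 61.6%, 72.3% and 79.8%. The Ska complex held 35.3%, 66.0% and 51.8% and the corona 41.1%, 56.5% and 61.1%. Every sub-complex was lower in iASPP-KO in every batch, and differences between sub-complexes were not tested.

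**Figure D3:**
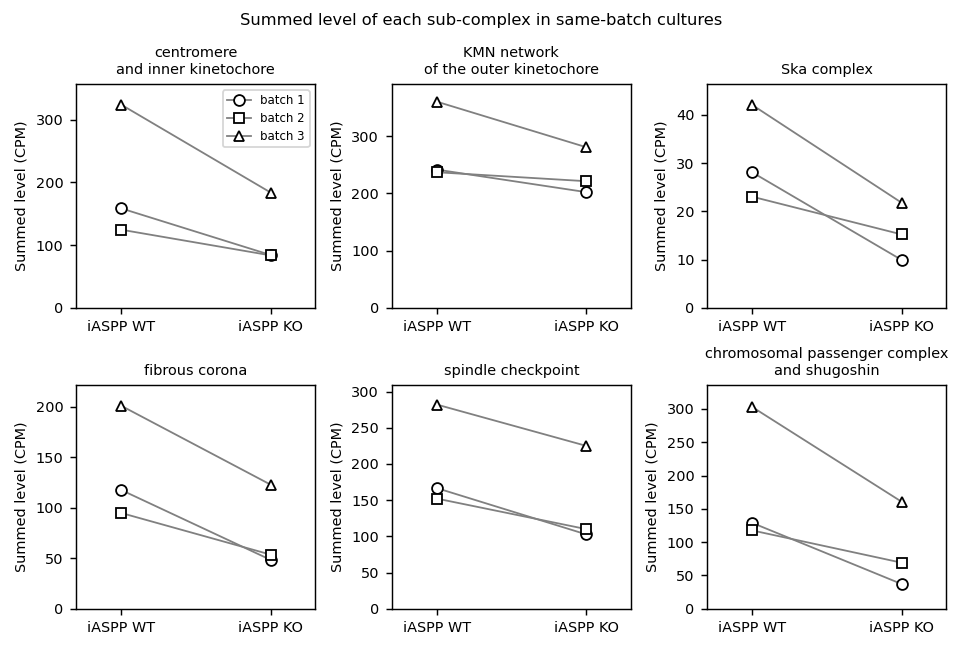
Each panel gives the summed level (CPM, vertical axis from 0) of the genes of 1 sub-complex in iASPP-WT and iASPP-KO cultures, and a line joins the 2 cultures of a batch. All 18 lines slope down, with 77.9% to 93.4% of the iASPP-WT level remaining in the KMN network and 28.8% to 58.8% in the passenger complex with shugoshin, and batch 3 lies above the other batches in every panel.

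Levels of different genes were compared per length of exon, as CPM per kb. In iASPP-WT cultures the means ran from 0.454 for *Cenpl* to 28.0 CPM per kb for *Zwint*, with *Cdca8* at 18.5, *Cenpq* at 14.5, *Mis12* at 13.6, *Bub3* at 13.1 and *Bub1b* at 11.9 below it. Spread over the 3 batches was small for *Zwint* (SD 1.87) and *Bub3* (SD 0.956) and large for *Cdca8* (SD 12.2), *Cenpq* (SD 9.38) and *Bub1b* (SD 7.97), so these last 3 are not ordered beyond their spread (n = 3). Subunits of 1 complex were not at 1 level on this scale, for example *Spc24* at 6.57, *Spc25* at 5.39, *Ndc80* at 3.45 and *Nuf2* at 2.94 CPM per kb, with SDs of 2.92, 2.696, 3.03 and 2.09. Exon length here is the union over all annotated transcripts and may be longer than the RNA made in these cells. Windows of 42 bases, the read length, from the longest transcript of each member were searched in the annotated transcripts of other genes. Of the 40, 19 share no such window, and the highest share was 7.27% (*Cenpc1*, with the gene Gm13477). Inexact copies and sequence outside annotated transcripts were not searched.

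A further 18 kinetochore genes were listed by function, also with earlier results of these data known. Of these, 4 fell and 0 rose, against 1.95% and 2.17% of all tested genes. A log2 fold change below 0 was found for 17 of them (median −0.68), against 49.4% of all tested genes. Of the 4 that fell, *Cdc20*, the checkpoint's target and activator of the anaphase-promoting complex, was at −1.72 (SE 0.22, edgeR adjusted p = 0.00287). *Hjurp*, the chaperone of CENP-A, fell by 0.86, and *Pmf1*, a Mis12 complex subunit, by 0.70 on the log2 scale (edgeR adjusted p = 0.00741 and 0.0246). Those not called ran from −1.84 (*Oip5*) to 0.16 (*Bod1*). Among them, *Mad1l1* was at −0.10, *Mad2l1bp* at −0.22, *Zw10* at −0.26 and *Cenpb* at −0.03. The count called lower was 2 without batch 1 and 2 without batch 2.

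Other cell cycle genes moved alongside the members. Against 1.95% of all tested genes, 7 of 10 such genes fell, with edgeR adjusted p from 0.00123 to 0.0303. Their log2 fold changes were −1.37 for *Mki67* (the Ki-67 antigen), −1.15 for *Top2a*, −1.296 for *Ccnb1*, −1.499 for *Ccna2*, −1.09 for *Cdk1*, −0.67 for *Mcm2* and −1.22 for *Ccne1*. *Cdkn1a*, which encodes the cyclin-dependent kinase inhibitor p21, rose by 0.64 (edgeR adjusted p = 0.0138). *Pcna* at −0.26 and *Ccnd1* at −0.02 were not called. The median over these 10 genes was −1.12. Whether the members changed beyond these genes was not tested.

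Keratinocyte markers (*Krt5*, *Krt14*, *Trp63*, *Itga6*, *Itgb4* and *Col17a1*) summed to 22866 to 26740 CPM in iASPP-KO and 23629 to 27413 CPM in iASPP-WT cultures, with 0 of 6 called. Fibroblast markers were low in batches 1 and 2 and high in batch 3: they summed to 36.7, 51.5 and 454 CPM in iASPP-KO and 33.7, 44.1 and 669 CPM in iASPP-WT cultures. That is the batch in which the members were highest, and *Col1a2* and *Col3a1* fell by 0.55 and 0.87 on the log2 scale, 2 of 6 fibroblast markers. The others were not called, with *Pdgfra* at 0.81, *Dcn* at −0.02, *Col1a1* at −0.33 and *Lum*, which was at 0 in the iASPP-WT culture of batch 1, at −1.14. Without batch 3 the median over the members was −1.05. Leukocyte markers summed to 10.8 to 29.9 CPM in iASPP-KO and 5.43 to 15.4 CPM in iASPP-WT cultures, and 1 of 3 tested was higher (*Csf1r*, log2 fold change 1.11). *Csf1r* made up most of these sums in batches 1 and 2, at 18.5 and 28.8 CPM in iASPP-KO and 9.09 and 15.1 CPM in iASPP-WT cultures. *Ptprc* at 0.16 and *Adgre1* at 1.46 were not called, and *Cd3e* was at 0 in all libraries. Melanocyte markers (329 to 1054 CPM over both groups) and endothelial markers (2.72 to 13.0 CPM) had 0 called. Suprabasal markers went both ways: *Krt10* fell by 1.31 on the log2 scale, while *Krt1* at −0.31, *Dsg1a* at −0.74, *Ivl* at 0.62 and *Lor* at 0.32 were not called. The part of these cell types in the members' differences was not tested.

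Promoter sequence was examined as a description. Promoters of such genes often hold these motifs, so the shares below are not independent of the choice of genes. A RefSeq promoter, from 250 bases before to 50 after the start, was matched for 35 of the 40 members, and those of *Spc24*, *Ska1*, *Zwilch*, *Aurkb* and *Incenp* were not analysed here. *Bub3* has 2 RefSeq promoters and *Cenpk* has 3, and for each the 1 running into the most GENCODE vM21 transcripts was used. A CHR occurred in 18 of the 35 (51.4%), against 19.2% of all 32851 RefSeq promoters, and a CCAAT box in 25 (71.4%), against 37.4%. Members gave 1 promoter each, whereas the share over all promoters counts every promoter of every gene without such a choice. From 100 bases before the start onward the shares were 48.6% against 8.59% for the CHR and 65.7% against 23.4% for the CCAAT box. E2F sites, searched on both strands as TTTCCCGC, TTTGGCGC, TTTCGCGC or TTTGCCGC, were in 3 members (8.57%), against 2.26% of promoters. The CHR was in 10 of 19 members that fell and 8 of 16 without a call, the CCAAT box in 73.7% and 68.8%, and an E2F site in 5.26% and 12.5%. From 100 bases before the start onward, the CHR shares were 52.6% and 43.8%. The difference between these sets was not tested. *Bub3*, whose log2 fold change was near 0, has both, as the stretch printed for it shows, and *Zwint* and *Mis12* have the CCAAT box. *Nuf2*, which fell, has none of the 3 motifs in this window. None was found for *Mad2l1*, which also fell, but its window ended at chr6:66535270, before the first counted base of the gene at 66535390. Sequence at that first base was therefore not searched.

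Motif positions are described within the searched window, and positions over all promoters were not compared. Of 19 CHR copies, 16 lay within 50 bases either side of the start and 11 began after it, as in *Cdca8*, *Bub1*, *Ttk* and *Cenpf*. Of 48 CCAAT copies, 41 began before the start, where 250 of the 300 searched bases lie. This count therefore does not show a preferred place. Both motifs were present in 15 members and neither in 7, *Mad2l1* among them. In *Cenpw* and *Kntc1*, as in *Cdca8*, a CHR and a CCAAT match overlap by 1 base. A match of these letters is a description of the window and says nothing of what is bound there.

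**Figure D4:**
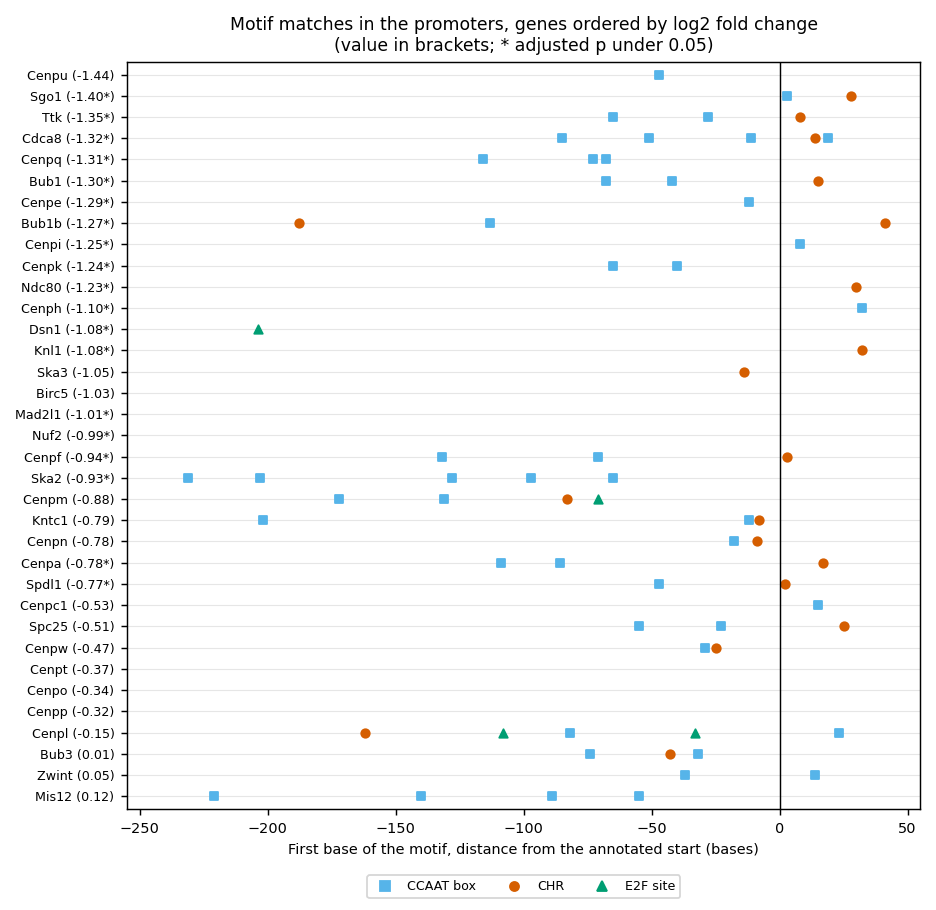
The horizontal axis gives the first base of each motif match relative to the annotated start of transcription, and the rows are the 35 members with a RefSeq promoter, ordered by log2 fold change (in brackets, with a star where the adjusted p is under 0.05). Circles are CHR matches, squares CCAAT boxes and triangles E2F sites. Of the circles, 16 of 19 lie within 50 bases of the start. Of the squares, 41 of 48 lie before it, as do 250 of the 300 bases searched.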

How the data were processed

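RNA from 6 cultures of primary mouse keratinocytes, 3 iASPP-KO and 3 iASPP-WT in 3 batches, was measured by RNA sequencing. The authors trimmed the reads with cutadapt 2.10, aligned them to mm10 with STAR 2.7.3 and counted uniquely placed, strand-matched exon reads with featureCounts 2.0.0 and the GENCODE vM25 annotation, and they deposited these raw counts per gene name. Tool versions are from the submitters' processing notes. A second deposited table holds the fold changes, standard errors and p-values of the authors' own comparison and was not used here. Columns of counts that matched no sample numbered 0.

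The members and gene lists were chosen with earlier results of these data known, and every member is named. Of the other kinetochore genes that fell, 1 is not reported here by name. Groups and batches were taken from the labels. The test was edgeR's quasi-likelihood F-test, version 4.0.16 under R 4.3.3 (filterByExpr with a minimum count of 10, TMM, glmQLFit and glmQLFTest with batch and condition, Benjamini-Hochberg adjustment over 14916 genes, threshold 0.05). The standard error is the absolute log2 fold change divided by the square root of F, and intervals are at the 95% level. Within-batch differences were taken on log2 CPM, to which a prior count of 2 was added. Depth was 20202517 to 25157117 counts per library. Deviations of the 2 cultures of a batch from their group means correlated at 0.566, 0.733 and 0.761 over 5335 genes, and those of different batches at −0.711 to 0.357. Chi-square per gene between cultures of one condition was at least 35.4, so no library was a copy of another of its condition. Libraries of different conditions were not compared in this way. The fits were tested on simulated data. Other genes' transcripts were searched for shared windows of 42 bases in GENCODE vM21 (GRCm38), and promoters are RefSeq's (GRCm38.p6). Of the 35 promoters, 32 ran into a vM21 transcript, and those of *Spc25*, *Mad2l1* and *Birc5* did not. Alternatives were no batch term, DESeq2 1.42.0, other scalings, filters and dispersion, a fold change minimum and leaving out each batch.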

Additional observations from a re-analysis of the deposited data

How the results depend on the processing

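The count of 20 members lower in iASPP-KO ranged from 22 to 27 under the alternatives of test, scaling, filter and dispersion that kept the batch term, and all 20 main calls were among them. Over all genes the count called lower also rose in these alternatives, from 291 in the main fit to between 326 and 491. The member count was 14 with a log2 fold change of at least 1 required, where no count over all genes was made. With no replicate block, where 0 of all 14916 tested genes were called, it was 0, the count of other kinetochore genes was 0, the spindle checkpoint median was −1.02 and *Ppp1r13l* was at −1.38 and not past the threshold. DESeq2 called 7 other kinetochore genes. Leaving out batch 1, 2 or 3 gave 7 to 26 members and 2 to 6 other kinetochore genes. The higher count was 0 in each alternative. The median over members ran from −1.05 to −0.73. *Cenpl* turned to 0.0093 with no replicate block. With a batch left out, *Cenpl* ran from −0.56 to 0.50 (positive without batch 1) and *Bub3* from −0.13 (without batch 3) to 0.11. Across 400 member values under the alternatives, 321 kept direction and side of the threshold, 30 passed newly, 46 lost the call and 3 changed sign. *Cenpq*, *Ndc80*, *Cenpe*, *Bub1*, *Bub1b* and *Cdca8* were called in each of the 10 fits with a batch term, and 13 members in none. The batches come from the labels, so the pairing is part of the main design, and the cause of the loss without it was not tested. Leaving out a batch leaves 2 cultures of each condition and fewer residual degrees of freedom. The effect of depth on members with under 50 counts in a library was not tested.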
